A study of Mus musculus with 15 samples.

Results

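The atrial identity genes Sln, Myl4, Myl7, Bmp10, Nr2f2, Dkk3 and Stard10 were followed across the hearts of methamphetamine-treated (Meth) and PBS-treated mice. Members were found by gene symbol, through the accession that each array probe carries, and all 7 had a probe among the 18531 named genes of the array. Myl4 had 2 probes and the other members 1 each. All 8 probes were well above background on 15 of 15 arrays, so no member depended on the filter that left 14311 named genes for testing.

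Heart RNA was measured on 15 single-colour arrays, 1 for each mouse, to ask which transcripts differed after long exposure to the drug and whether males and females differed in this. All mice were C57BL/6 and young adult at the start, and received 1 intraperitoneal injection each week for 20 weeks (5 months). Meth mice received methamphetamine hydrochloride in PBS at a rising dose that ended at 40 mg/kg, and controls received PBS alone. Male hearts came from trials 1 and 2, with 2 Meth and 2 PBS hearts in each (n = 4 Meth and n = 4 PBS), and female hearts from trial 1 (n = 4 Meth and n = 3 PBS).

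The mammalian heart has atria and ventricles whose muscle cells use partly different sets of contractile proteins, ion channels and secreted factors. Atrial muscle carries its own essential and regulatory myosin light chains and a small inhibitor of the calcium pump, and the nuclear receptor COUP-TFII, encoded by Nr2f2, is needed for atrial muscle to keep its identity. Several of these genes are on throughout the embryonic heart and become restricted to the atria as the ventricles mature.

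The labels give the tissue as heart and name no chamber, so the share of atrial tissue in each sample is unknown. All 12 of 12 markers of working cardiomyocytes were well above background on all 15 arrays, as were 12 of 15 other atrial-enriched genes and 10 of 10 ventricular-enriched genes. Fewer atrial cells in a sample and less of a transcript in each atrial cell cannot be told apart in such RNA. Levels are log2 signals relative to the 75th percentile of the same array, which was set to 0, and a level says nothing about how one gene compares with another. Sums over a list add probe signals, so the share of 1 gene in a sum tells how much its probe weighs there and not how abundant its transcript is.

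A promoter entry was matched for 5 of 7 members (Myl4, Myl7, Bmp10, Nr2f2 and Stard10) and not for Sln and Dkk3. Of the 5, Myl4, Myl7, Bmp10 and Stard10 are shown by the 250 bases before their start sites, because their levels moved together across the arrays, as described further on. The sequences are from RefSeq on GRCm38.p6, written along the gene's own strand. Capitals mark matches to 7 motifs searched on both strands. These were AGATAA for GATA factors, a second form of it that reads TGATAA, the T-box core AGGTGT, the nuclear receptor core AGGTCA, the NK2 factor motif TNAAGTG, the CArG box and the MEF2 site. The Myl4 window lay at chr11:104550413-104550662 (+ strand), inside the annotated span of the gene, that of Myl7 at chr11:5898783-5899032 (- strand), that of Bmp10 at chr6:87428744-87428993 (+ strand) and that of Stard10 at chr7:101316836-101317085 (+ strand), the last 3 directly before the annotated gene.
Myl4: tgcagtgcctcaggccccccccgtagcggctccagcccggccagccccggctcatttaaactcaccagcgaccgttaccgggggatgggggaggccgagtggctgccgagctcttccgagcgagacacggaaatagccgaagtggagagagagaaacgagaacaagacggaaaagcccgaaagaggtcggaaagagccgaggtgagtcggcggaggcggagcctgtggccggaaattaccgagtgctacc
Myl7: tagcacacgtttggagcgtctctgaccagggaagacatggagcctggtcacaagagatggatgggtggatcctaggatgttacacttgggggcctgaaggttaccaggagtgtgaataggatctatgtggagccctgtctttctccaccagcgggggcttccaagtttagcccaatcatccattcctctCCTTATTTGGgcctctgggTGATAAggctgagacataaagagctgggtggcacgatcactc
Bmp10: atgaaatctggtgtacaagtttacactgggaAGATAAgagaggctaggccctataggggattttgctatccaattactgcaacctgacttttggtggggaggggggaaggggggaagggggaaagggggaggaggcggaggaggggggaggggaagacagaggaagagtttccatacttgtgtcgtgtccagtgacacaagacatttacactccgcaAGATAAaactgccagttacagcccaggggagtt
Stard10: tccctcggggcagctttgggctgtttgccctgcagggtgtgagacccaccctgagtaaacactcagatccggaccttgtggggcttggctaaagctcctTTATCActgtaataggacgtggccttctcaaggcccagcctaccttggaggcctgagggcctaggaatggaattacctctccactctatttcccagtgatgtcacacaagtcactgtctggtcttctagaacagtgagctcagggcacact

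In the Myl7 window, the first base of the CArG box lay at -61 from the start site and that of TGATAA at -42. The Bmp10 window held AGATAA at -219 and again at -33. In the Stard10 window TGATAA lay on the opposite strand at -151 and is therefore printed as TTATCA. The windows of Myl4 and of Nr2f2, at chr7:70366747-70366996 (- strand), held none of the 7 motifs. Among 32851 promoter windows of the same length, 9.99% held AGATAA, 7.94% TGATAA, 1.47% the CArG box, 2.92% the MEF2 site, 11.8% AGGTGT, 14.0% AGGTCA and 10.1% TNAAGTG. Matches to the CArG box and the MEF2 site are thus less frequent than those to the other motifs, and all matches describe letters only.

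Sln encodes sarcolipin, a small membrane protein that inhibits the calcium pump SERCA. In PBS males the Sln level was 7.20 and 7.33 in trial 1 and 7.43 and 7.30 in trial 2, and in Meth males it was 7.50 and 7.68 in trial 1 and 6.91 and 7.33 in trial 2. Female levels were 7.01, 6.79 and 6.59 with PBS and 7.43, 7.16, 6.74 and 7.02 with Meth. The 3 PBS females all lay below the 4 PBS males, whereas Meth and PBS hearts overlapped within each sex. Group means ± SD were 7.31 ± 0.09 in PBS males, 7.36 ± 0.33 in Meth males, 6.80 ± 0.21 in PBS females and 7.09 ± 0.29 in Meth females.

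For Sln the fitted difference between PBS males and PBS females was 0.61 (95% interval 0.18 to 1.04, 1.52-fold), and it did not pass after Benjamini-Hochberg adjustment over the 28367 probes tested (limma adjusted p = 0.191, 0.0931 to 0.519 over 25 alternatives). An exact permutation test of the same 4 and 3 hearts gave p = 0.0286, the smallest value that 35 regroupings allow (0.0571 with the smaller tail doubled). This test, here and for the other members, regrouped hearts freely and took no account of replicate pairs, slides or trials. The Meth minus PBS difference of Sln was 0.29 in females (-0.10 to 0.68, limma adjusted p = 0.624), and 0.18 without PBS female 3 or without Meth female 1. In males it was 0.04 (-0.32 to 0.40, limma adjusted p = 0.947) and turned to -0.04 without PBS mouse 1 of trial 1 and to -0.05 without Meth mouse 2 of trial 1. Fitted differences hold the trial constant and so need not equal differences of group means.

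Myl4, the atrial essential myosin light chain, had levels of 6.13 and 6.23 in trial 1 and 6.84 and 6.52 in trial 2 in PBS males. In Meth males Myl4 stood at 6.60 and 6.97 in trial 1 and at 6.31 and 6.46 in trial 2. PBS females had 5.84, 5.47 and 5.92, and Meth females 6.47, 6.06, 6.28 and 6.88. The 3 PBS females were the lowest of all 15 hearts, with no overlap with Meth females or PBS males, and Meth and PBS males overlapped. Group means ± SD were 6.43 ± 0.32, 6.59 ± 0.28, 5.74 ± 0.24 and 6.42 ± 0.35 for PBS males, Meth males, PBS females and Meth females.

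In females the Myl4 difference between Meth and PBS was 0.68 (0.19 to 1.17, 1.60-fold), with a limma p of 0.0105 that did not pass adjustment (adjusted p = 0.236, 0.165 to 0.952 over 30 alternatives). The exact permutation p was 0.0571 for these 4 and 3 hearts. With the slide as a block the female difference was 0.63 (limma adjusted p = 0.223), and within slides 1, 2 and 4 it was 0.63, 0.58 and 0.66. The second Myl4 probe gave 0.47 in females (limma adjusted p = 0.294), 0.12 in males and 0.73 for PBS males against PBS females (limma adjusted p = 0.119). Between PBS males and PBS females the first probe differed by 0.66 (0.12 to 1.20, limma adjusted p = 0.242), and by 0.44 in trial 1 alone. In males the Myl4 difference was 0.16 (-0.30 to 0.61, limma adjusted p = 0.814) and fell to -0.01 without Meth mouse 2 of trial 1.

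Myl7 encodes the atrial regulatory myosin light chain. PBS males had Myl7 levels of 7.31 and 7.37 in trial 1 and 7.999 and 7.81 in trial 2, against 7.69 and 7.83 and then 7.38 and 7.77 in Meth males. Levels in females were 7.30, 6.98 and 7.02 with PBS and 7.77, 7.42, 7.35 and 7.56 with Meth. All PBS females lay below all Meth females and below all PBS males, the PBS female at 7.30 lying just under the PBS male at 7.31. Means ± SD were 7.62 ± 0.33 in PBS males, 7.67 ± 0.20 in Meth males, 7.10 ± 0.17 in PBS females and 7.52 ± 0.18 in Meth females.

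The Myl7 difference between Meth and PBS females was 0.42 (0.06 to 0.79, 1.34-fold), and it did not pass adjustment (limma adjusted p = 0.347, 0.230 to 0.952 over 29 alternatives). By exact permutation its p was 0.0286, again the smallest possible (0.0571 with the smaller tail doubled). Within slides 1, 2 and 4 the female difference was 0.47, 0.44 and 0.43, and it was 0.45 with the slide as a block (limma adjusted p = 0.255). Between PBS males and PBS females Myl7 differed by 0.43 (0.02 to 0.83, limma adjusted p = 0.303), with an exact permutation p of 0.114, and by 0.24 in trial 1 alone and 0.25 after quantile normalization. In males the difference with Meth was 0.04 (-0.29 to 0.38, limma adjusted p = 0.942). It became -0.04 and -0.02 without PBS mice 1 and 2 of trial 1, and -0.003 and -0.06 without Meth mice 1 and 2 of trial 1.

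Bmp10, a secreted BMP-family growth factor made by heart muscle, varied more than any other member. PBS males had -2.84 and -1.41 in trial 1 and -0.72 and -0.54 in trial 2, and Meth males -0.50 and -0.08 in trial 1 and -0.40 and -0.93 in trial 2. In females the Bmp10 level was -1.74, -3.63 and -1.60 with PBS and -0.73, -1.77, -2.16 and -1.15 with Meth. PBS female 2 and PBS male 1 of trial 1 had the lowest values of their sex, and Meth and PBS hearts overlapped in each sex. Its span over the 15 arrays was 11.7-fold, and its within-group SD of 0.82 stood at percentile 99.8 of the 23820 probes above background on every array.

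For Bmp10 the Meth minus PBS difference was 0.90 in males (-0.24 to 2.05, limma adjusted p = 0.516) and 0.87 in females (-0.37 to 2.11, limma adjusted p = 0.648). Group means ± SD were -1.38 ± 1.04, -0.48 ± 0.35, -2.32 ± 1.14 and -1.45 ± 0.64 in PBS males, Meth males, PBS females and Meth females. The male value was 0.43 without PBS male 1 of trial 1, 0.59 after normexp correction and 1.83 in trial 1 alone, and the female value was 0.22 without PBS female 2. Both intervals include 0 and reach above 2 on the log2 scale, and a p that misses the threshold does not show that the groups were alike.

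Dkk3 encodes a secreted glycoprotein of the Dickkopf family. Its level in PBS males was 1.04 and 1.24 in trial 1 and 1.85 and 1.59 in trial 2, and in Meth males 1.85 and 2.33 in trial 1 and 2.02 and 1.59 in trial 2. PBS females had 1.16, 0.79 and 1.61 and Meth females 1.54, 1.37, 1.58 and 1.80. The Meth male values reached higher, but PBS males of trial 2 overlapped with them. Group means ± SD were 1.43 ± 0.36 in PBS males, 1.95 ± 0.31 in Meth males, 1.19 ± 0.41 in PBS females and 1.57 ± 0.18 in Meth females.

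The male Dkk3 difference was 0.52 (0.05 to 0.98, 1.43-fold, limma p = 0.0317), which did not pass adjustment (adjusted p = 0.328, 0.203 to 0.917 over 29 alternatives), and the exact permutation p was 0.0571. It was 0.34 without Meth male 2 of trial 1, and within slides 1, 2 and 3 it was 0.81, 1.09 and 0.09. In females the Dkk3 difference was 0.39 (-0.11 to 0.89, limma adjusted p = 0.604), with 0.19 without PBS female 2, 0.60 without PBS female 3 and 0.24 after normexp correction.

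Nr2f2 encodes a nuclear receptor, the transcription factor COUP-TFII, and is also expressed in venous and lymphatic endothelium. PBS males had Nr2f2 levels of 1.11 and 1.16 in trial 1 and 1.02 and 0.93 in trial 2, and Meth males 1.37 and 1.49 in trial 1 and 1.24 and 1.19 in trial 2. Levels in PBS females were 1.05, 1.20 and 0.85 and in Meth females 1.56, 1.24, 0.84 and 1.23. All 4 Meth males lay above all 4 PBS males, and females overlapped. Means ± SD were 1.05 ± 0.10, 1.32 ± 0.13, 1.03 ± 0.18 and 1.22 ± 0.29 in PBS males, Meth males, PBS females and Meth females.

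The male Nr2f2 difference was 0.27 (-0.00 to 0.54, 1.21-fold, limma adjusted p = 0.398), and the adjusted p ran from 0.0786 to 0.990 over 29 alternatives. Its exact permutation p was 0.0286, the smallest that 70 regroupings allow. Those regroupings crossed replicate pairs, slides and trials. Within slides 1, 2 and 3 the difference was 0.27, 0.33 and 0.24, so Nr2f2 was one of 2 members, with Dkk3, that were above PBS on all 3 slides that held males. After a shift by the median in place of the 75th percentile, the Meth and PBS males of no member were fully apart. In females the Nr2f2 difference was 0.19 (-0.11 to 0.48, limma adjusted p = 0.703), and it was 0.09 without PBS female 3, 0.07 without Meth female 1 and 0.31 without Meth female 3.

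Stard10 encodes a lipid transfer protein. Its level in PBS males was 2.29 and 2.61 in trial 1 and 2.76 and 2.57 in trial 2, and in Meth males 2.56 and 2.68 and then 2.36 and 2.69. In PBS females Stard10 stood at 2.20, 1.88 and 2.42 and in Meth females at 2.44, 2.22, 2.37 and 2.75. The groups overlapped in every comparison. Group means ± SD were 2.56 ± 0.20, 2.58 ± 0.15, 2.17 ± 0.28 and 2.44 ± 0.22 in PBS males, Meth males, PBS females and Meth females. The Stard10 difference with Meth was 0.02 in males (-0.30 to 0.34, limma adjusted p = 0.977) and 0.28 in females (-0.07 to 0.62, limma adjusted p = 0.592), and the male value turned to -0.02 after a shift by the median. It was -0.08 without PBS mouse 1 of trial 1, -0.04 without Meth mouse 2 of trial 1 and -0.02 without Meth mouse 2 of trial 2. The female value was 0.13 without PBS female 2, 0.17 without Meth female 4 and 0.17 with the replicate block. PBS males exceeded PBS females by 0.36 (-0.02 to 0.74, limma adjusted p = 0.349), and by 0.22 without PBS female 2.

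**Figure D1:**
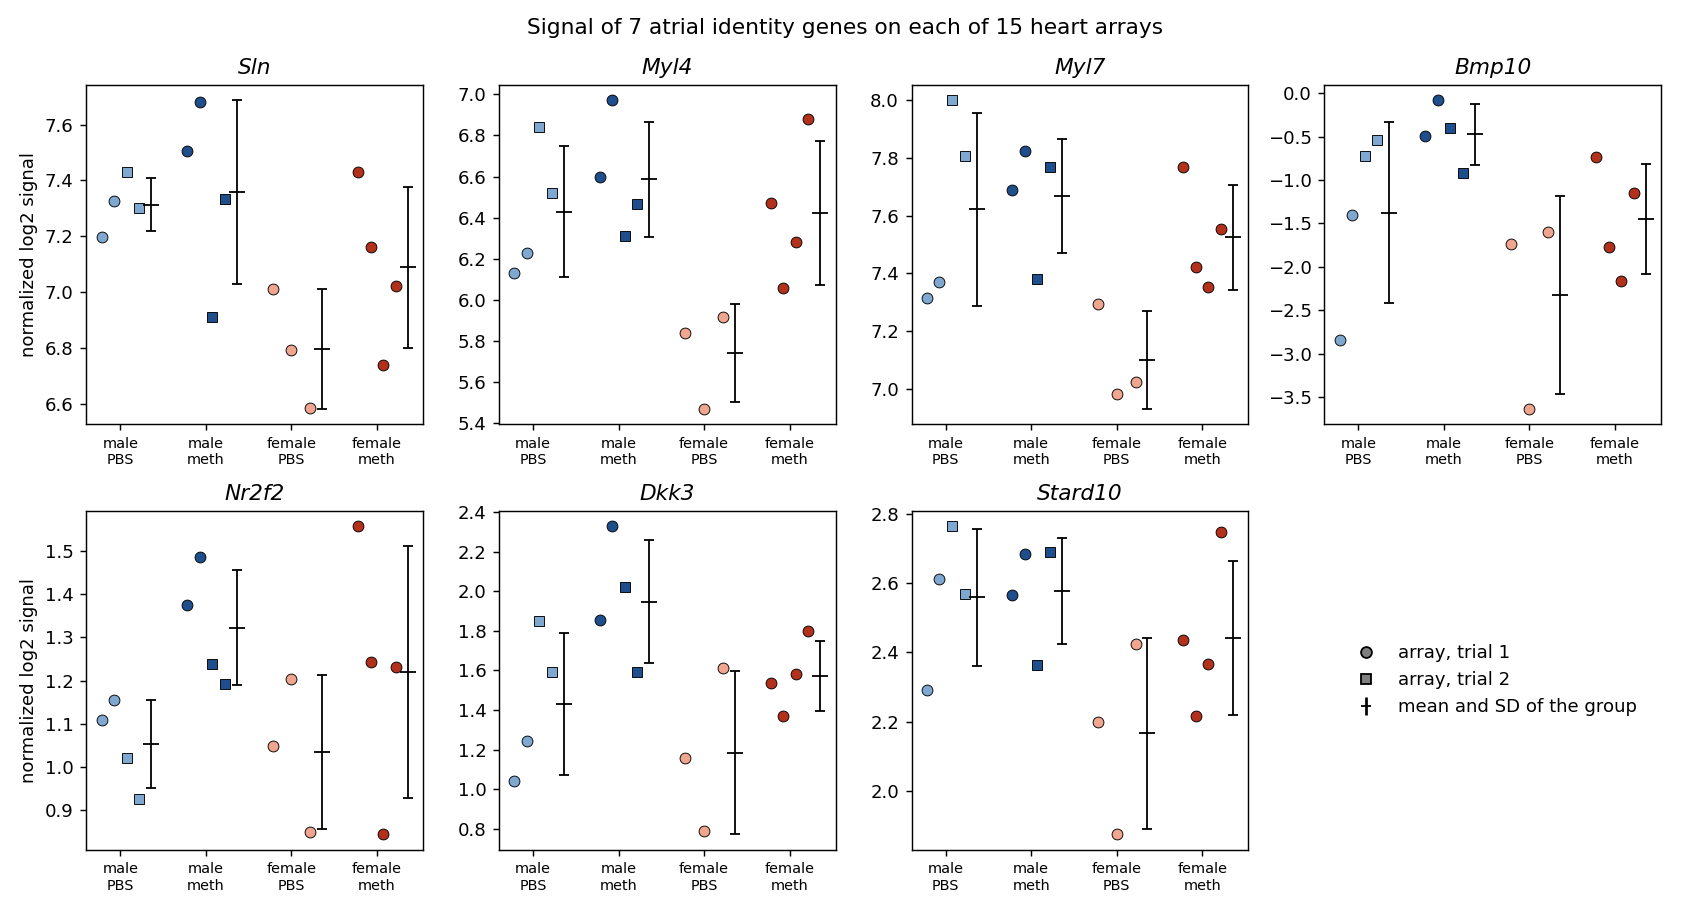
Normalized log2 signal of each member (vertical axis) on each of the 15 arrays, by group (horizontal axis), with the trial given by the marker and the mean and SD of each group drawn beside the points. The 3 PBS females are the lowest hearts for Myl4, and the 4 Meth males lie above the 4 PBS males for Nr2f2.

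Set side by side, 0 of 7 members passed an adjusted p of 0.05 with Meth in males (limma), where 1.11% of all probes did. At an unadjusted p under 0.05, Dkk3 was the 1 member higher in Meth males, against 6.1% of all probes. Nr2f2 was the 1 member whose Meth and PBS males did not overlap, against 4.68% of all probes lying wholly higher, and no more is read from counts of 1. The count of members apart was 3 without Meth mouse 2 of trial 2 and 2 without PBS mouse 1 of trial 2. Shares of all probes, here and below, are for comparisons with no array left out, and none is given for the smaller groups. The median difference of the members was 0.16, beside -0.03 over all probes.

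In females 0 of 7 members passed (limma), beside 0.758% of all probes, and 2 members, Myl4 and Myl7, were higher at an unadjusted p under 0.05, beside 3.43%. The same 2 members had Meth hearts wholly above PBS hearts, which held for 3.14% of all probes. That count was 4 without Meth mouse 3 and 4 without PBS mouse 3, and it was 0 after normexp background correction and 1 after quantile normalization. The members' median difference was 0.39 in females, beside 0.00 over all probes.

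All 7 differences with Meth were above 0 in both sexes, where 22.9% of all probes were. Members varied together from heart to heart, so these are not 7 separate agreements. The male value of Stard10 fell below 0 after a shift by the median. Male values of Sln, Myl4, Myl7 and Stard10 each fell below 0 in some fits without 1 array. In trial 2 alone the male value was below 0 for 5 of 7 members. Within slides the females were above 0 for 7 of 7 members on slides 1 and 2 and for 6 of 7 on slide 4, where Bmp10 was -0.05. That value lay above 0 after normexp correction, quantile normalization and a shift by the median, whereas Nr2f2 on slide 2 (0.04) fell below 0 after the first 2 of these and Dkk3 on slide 4 (0.08) after normexp correction.

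The difference between the male and female responses passed for 0 of 7 members (limma), beside 0.137% of all probes, and 0 members had an unadjusted p under 0.05, beside 8.66%. It was -0.52 for Myl4 (-1.19 to 0.14), -0.38 for Myl7 (-0.88 to 0.12), -0.26 for Stard10 and -0.25 for Sln, and 0.13 for Dkk3, 0.08 for Nr2f2 and 0.03 for Bmp10. In trial 1 alone it was -0.08 for Myl4, -0.0075 for Myl7, -0.10 for Stard10, 0.04 for Sln, 0.56 for Dkk3 and 0.96 for Bmp10. Quantile normalization gave -0.34 for Myl4, -0.19 for Myl7 and -0.11 for Sln, and Myl7 was -0.23 without Meth male 1 of trial 2. Over the arrays left out in turn, Sln ran from -0.36 to -0.11 and Stard10 from -0.39 to -0.11. The Nr2f2 value turned to -0.02 after a shift by the median, and that of Bmp10 to -0.08 after that shift and to -0.04 after quantile normalization. Left-out arrays turned 3 of these values. Dkk3 was -0.08 without PBS female 3 and -0.05 without Meth male 2 of trial 1, and Nr2f2 was -0.001 without PBS female 2 and -0.04 without Meth female 3. Bmp10 was -0.26 and -0.33 without PBS females 1 and 3, -0.08 and -0.21 without Meth females 2 and 3, -0.44 without PBS male 1 of trial 1, and -0.07 and -0.24 without Meth males 1 and 2 of trial 1.

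**Figure D2:**
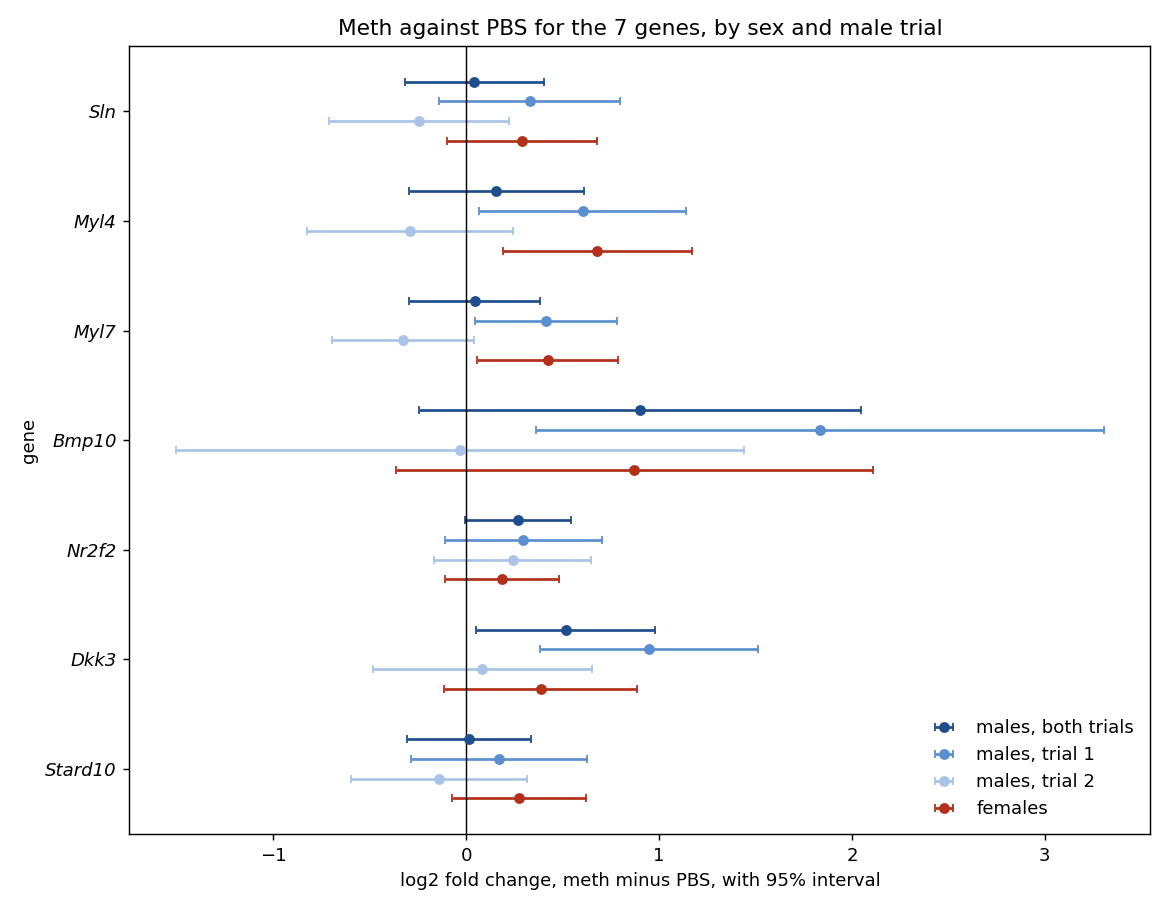
Log2 difference between Meth and PBS hearts (horizontal axis) with its 95% interval for each member, in males of both trials, males of trial 1, males of trial 2 and females. Female values are all above 0 and male values of trial 2 are below 0 for 5 of 7 members.

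Among PBS hearts, males were above females for 7 of 7 members, which vary together, beside 45.1% of all probes. Of the 7 members 0 passed (limma), beside 0.462% of all probes. Sln, Myl4 and Myl7, the contractile and calcium-handling members, were the 3 higher in males at an unadjusted p under 0.05, beside 6.41% of all probes. They were also the 3 members whose PBS males and PBS females did not overlap, beside 6.83% of all probes, with 5 such members without PBS male 1 of trial 1 and 1 after quantile normalization. The median over members was 0.43, beside -0.03 over all probes, and the Dkk3 value of 0.17 turned to -0.03 without PBS female 2. The Bmp10 value of 0.67 was 0.01 without PBS female 2, 0.20 in trial 1 alone and 1.38 without PBS male 1 of trial 1. The Nr2f2 value of 0.11 was 0.003 with the slide as a block and 0.23 after a shift by the median. Only slides 1 and 2 held PBS hearts of both sexes, with 1 of each. Within slides 1 and 2 the male excess was 0.19 and 0.53 for Sln, 0.29 and 0.76 for Myl4, and 0.02 and 0.39 for Myl7, the 0.02 turning to -0.09 after quantile normalization. It was -1.10 and 2.23 for Bmp10, 0.06 and -0.05 for Nr2f2, -0.11 and 0.46 for Dkk3 and 0.09 and 0.74 for Stard10, so 5 of 7 members lay above 0 on slide 1 and 6 of 7 on slide 2, with Nr2f2 above 0 on slide 2 after a shift by the median. With the slide as a block it was 0.48 for Sln (limma adjusted p = 0.188), 0.76 for Myl4 (adjusted p = 0.168) and 0.38 for Myl7 (adjusted p = 0.315).

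Among Meth hearts the differences between males and females ran from 0.05 for Myl7 to 0.70 for Bmp10, and 0 of 7 members passed (limma, lowest adjusted p = 0.324), beside 2.62% of all probes. The Bmp10 value was 0.29 without Meth male 2 of trial 1, 0.46 without Meth female 3, 0.44 after normexp correction and 1.16 in trial 1 alone. At an unadjusted p under 0.05 there were 0 members, beside 7.57% of all probes higher in males. By the first probe of each, 0 members had Meth males and Meth females that did not overlap, beside 4.36% of all probes with males wholly higher, with 1 apart without Meth female 1 or without Meth female 4 and 2 without Meth male 2 of trial 2. Within slide 1, 5 of 7 members lay above 0, Myl7 (-0.08) and Nr2f2 (-0.18) being the others, and within slide 2 all 7 did, with Myl7 on slide 1 above 0 after quantile normalization. The Myl7 value turned to -0.02 with the slide as a block, to -0.01 without Meth female 3, and to -0.02 and -0.10 without Meth males 1 and 2 of trial 1. For Myl4 the difference was 0.14, and -0.11 without Meth male 2 of trial 1. The second Myl4 probe gave 0.37 (limma adjusted p = 0.291, exact permutation p = 0.0286), and its 4 Meth males lay wholly above its 4 Meth females.

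Male hearts of trial 1 and trial 2 were set apart next, because each trial held 2 Meth and 2 PBS hearts. In trial 1 the Meth hearts of 6 of 7 members lay wholly above the PBS hearts, Stard10 being the exception, beside 20.9% of all probes. Differences in trial 1 were 0.33 for Sln, 0.60 for Myl4, 0.42 for Myl7, 1.83 for Bmp10, 0.30 for Nr2f2, 0.95 for Dkk3 and 0.17 for Stard10. Of these, 4 (Myl4, Myl7, Bmp10 and Dkk3) had an unadjusted limma p under 0.05, beside 4.31% of all probes, and the lowest adjusted p was 0.245 for Dkk3. All 7 lay above 0 on slide 1 and on slide 2.

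In trial 2 the differences were -0.24 for Sln, -0.29 for Myl4, -0.33 for Myl7, -0.03 for Bmp10, 0.24 for Nr2f2, 0.09 for Dkk3 and -0.14 for Stard10. Meth hearts of 2 of 7 members, Myl4 and Myl7, lay wholly below PBS hearts, beside 30.6% of all probes. That count is near the share over all probes, and nothing particular to the members is read from it. Myl4 and Myl7 had Meth hearts wholly above PBS in trial 1 and wholly below in trial 2, a pattern that 3.27% of all probes showed. The 2 genes varied together (r = 0.86), and the pattern was chosen after values were seen. The sign of each of the 7 differences in trial 2, and on each trial 1 slide, was the same under the 4 other scalings and backgrounds tried.

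The test of the trial difference passed for 0 of 7 members (limma) and for 0% of all probes. It was -0.74 for Myl7 (-1.26 to -0.22, unadjusted p = 0.00921, limma adjusted p = 0.964), -0.89 for Myl4 (-1.65 to -0.14, unadjusted p = 0.0247, limma adjusted p = 1.00) and -0.86 for Dkk3 (-1.66 to -0.06, unadjusted p = 0.0366, limma adjusted p = 1.00). These 3 were lower in trial 2 at an unadjusted p under 0.05, beside 2.9% of all probes. Trial 2 males were all on slide 3, which was scanned in a session of its own, so trial, slide and session cannot be told apart there.

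The members also varied together from heart to heart. Pearson's r over the 15 arrays was positive for 21 of 21 pairs, with a median of 0.66, and 15 pairs had an adjusted permutation p under 0.05 (14 by Spearman's rho), adjusted over the 21 pairs. These permutations treated the 15 arrays as exchangeable and took no account of groups, sexes or shared slides, so r for deviations from group means stands beside the pairs described. No share over pairs of other probes is given beside these counts, and whether the members exceed it was not tested. Myl4 and Stard10 had the highest r, 0.89 (permutation p = 1e-05, the smallest that 100000 resamples can give, adjusted 0.00021), with a rho of 0.83 (permutation p = 0.00031, adjusted 0.00217). Without the 2 arrays farthest from the Myl4 median r was 0.83, and for deviations from group means it was 0.85. Both atrial light chains, Myl4 and Myl7, had an r of 0.86 (permutation p = 5e-05, adjusted 0.00035) and a rho of 0.87 (permutation p = 9e-05, adjusted 0.00168), and r was 0.80 without the 2 farthest arrays and 0.71 for deviations.

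The secreted members Bmp10 and Dkk3 had an r of 0.86 (permutation p = 4e-05, adjusted 0.00035) and a rho of 0.84 (permutation p = 0.00016, adjusted 0.00168), with 0.73 without the 2 farthest arrays and 0.77 for deviations. Sln and Myl7 had an r of 0.83 (permutation p = 0.00032, adjusted 0.00134) and a rho of 0.79 (permutation p = 0.0008, adjusted 0.00374), with 0.76 and 0.69. The other Sln pairs without Nr2f2 fell further by deviations, from 0.66 to 0.38 with Myl4, from 0.59 to 0.34 with Bmp10, from 0.56 to 0.21 with Stard10 and from 0.39 to 0.04 with Dkk3. Of the 6 pairs with Nr2f2, 1 had an adjusted p under 0.05, against 14 of the 15 pairs without it, whose median r was 0.76. That 1 pair was Sln and Nr2f2, with an r of 0.62 (permutation p = 0.0145, adjusted 0.0235) and a rho of 0.54 (permutation p = 0.0399, adjusted 0.0559), and r was 0.39 without the 2 arrays farthest from the Sln median and 0.72 for deviations. Nr2f2 and Stard10 had the lowest r, 0.10 (permutation p = 0.728, adjusted 0.728), with a rho of 0.04 (permutation p = 0.904, adjusted 0.904).

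Deviations from group means gave a median r of 0.55, with 19 of 21 pairs positive (-0.21 for Nr2f2 and Dkk3, -0.16 for Nr2f2 and Stard10), and deviations from slide means gave 0.73. The 8 arrays of scan session 1 alone, which were slides 1 and 2, gave a median r of 0.90, and the values there were 0.91 for Myl4 and Stard10, 0.95 for Myl4 and Myl7, 0.91 for Bmp10 and Dkk3, 0.94 for Sln and Myl7 and 0.71 for Sln and Nr2f2. The other Nr2f2 pairs had an r there of 0.81 with Myl7, 0.73 with Dkk3, 0.72 with Myl4, 0.68 with Bmp10 and 0.49 with Stard10. Slides 3 and 4 held too few arrays for a value of their own. Over the arrays left out in turn, the median r ran from 0.58 to 0.71, and 20 of 21 pairs were positive without Meth male 2 of trial 1, where Nr2f2 and Stard10 had an r of -0.014.

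**Figure D3:**
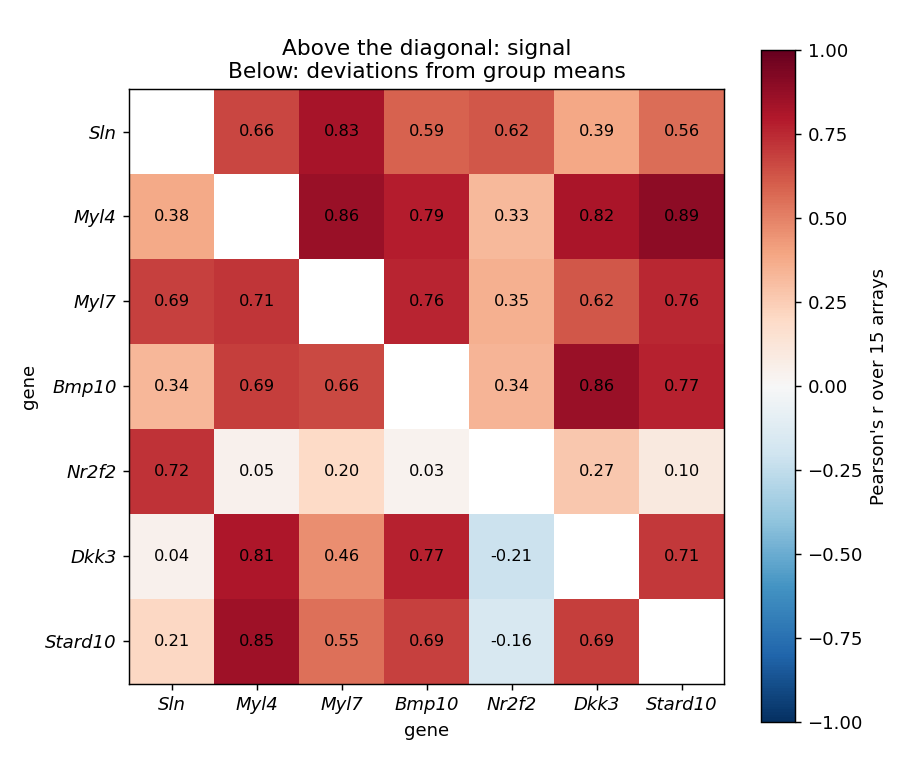
Pearson's r between members over 15 arrays, with normalized log2 signal above the diagonal and deviations from group means below it, colour giving r. Above the diagonal the 15 pairs without Nr2f2 have a median of 0.76.

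Each member's signal was standardized over the 15 arrays and the 7 were averaged in each heart. This mean was -0.68 and -0.06 in trial 1 and 0.81 and 0.31 in trial 2 for PBS males, and 0.77 and 1.43 in trial 1 and 0.12 and 0.48 in trial 2 for Meth males. It was -0.77, -1.64 and -0.89 for PBS females and 0.64, -0.35, -0.66 and 0.48 for Meth females. The 3 PBS females were the 3 lowest hearts, and Meth male 2 of trial 1 was the highest. Group means ± SD were 0.09 ± 0.63, 0.70 ± 0.55, -1.10 ± 0.47 and 0.03 ± 0.63 in PBS males, Meth males, PBS females and Meth females.

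Of 12679 other genes above background on every array, the 10 whose signal followed this mean most closely over the 15 arrays were Fgf12 (r = 0.935), Mybphl (0.931), Pum3 (0.927), Sds (0.926), Spock2 (0.915), Cd207 (0.901), Nppa (0.884), Tmem163 (0.880), Cracd (0.865) and Sytl2 (0.861). Mybphl, a myosin-binding protein of atrial muscle and the conduction system, and Nppa, which encodes atrial natriuretic peptide, are also in the list of other atrial-enriched genes. By deviations from group means the 10 were Ucp2 (0.916), Cd207 (0.896), Fgf12 (0.894), Slurp1 (0.874), Rassf4 (0.872), Sytl2 (0.872), Sds (0.863), Osbpl1a (0.854), Krt19 (0.854) and Slc7a7 (0.852). Of these, Krt19 is in the list of epicardial and mesothelial markers. The rankings shared 4 of 10 genes, Cd207, Fgf12, Sds and Sytl2. Over all probes compared the median r was -0.01, and 3.09% had an r above 0.5.

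The other atrial-enriched genes numbered 15, of which 14 were tested and Nr2f1 was not above background on any array. With Meth, 0 of 14 passed in either sex (limma), with median differences of 0.10 in males, 0.12 in females and 0.26 between PBS males and PBS females. Nppa differed by 0.40 in males (limma adjusted p = 0.221), 0.31 in females (0.453), 0.42 between PBS males and PBS females (0.249) and 0.50 between Meth males and Meth females (0.0999). Mybphl differed by 0.31, 0.53 and 0.64 in the first 3 of these comparisons, Pam, a peptide-amidating enzyme of atrial granules, by 0.14, 0.12 and 0.21, and Kcnk3, a potassium channel, by -0.03, -0.03 and 0.02. Over the 12 genes above background on all arrays, the median r with the members' mean was 0.55, and 7 of 12 had an r above 0.5.

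The summed signal of these 15 genes, relative to the 75th percentile, was 484, 479, 648 and 589 in PBS males and 649, 815, 739 and 636 in Meth males, each in the order trial 1 and then trial 2. It was 446, 338 and 416 in PBS females and 560, 463, 442 and 491 in Meth females. Nppa made up 90.9% of it, and the r of its log2 with the members' mean was 0.886. The ventricular-enriched genes had 0 of 10 past the threshold in each comparison, medians of -0.03 in males, 0.01 in females and 0.07 between PBS hearts, and a median r of 0.06. The brightest probe was that of Myl2, the ventricular regulatory light chain, with 41.6% of a sum whose r with the members' mean was 0.210.

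**Figure D4:**
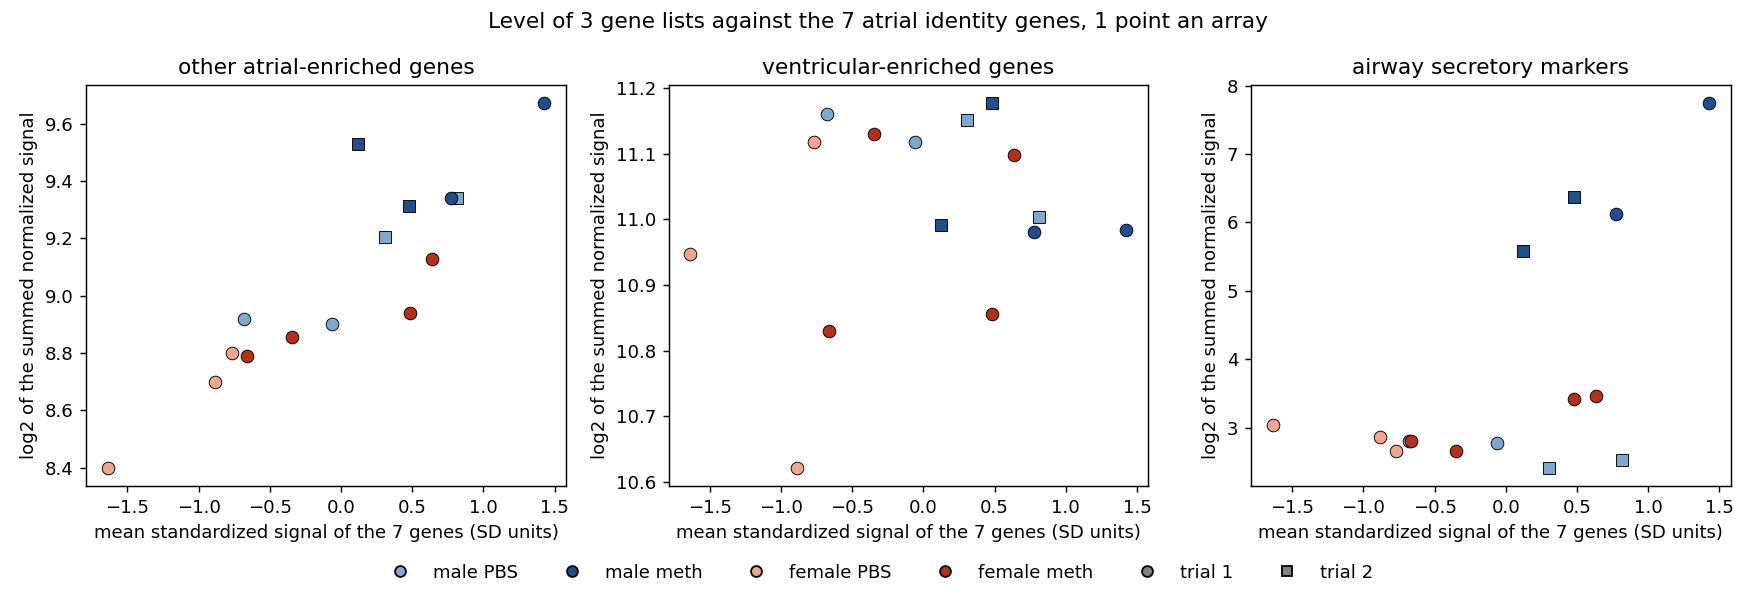
Log2 summed signal of the other atrial-enriched, ventricular-enriched and airway secretory lists (vertical axes) against the mean standardized signal of the 7 members (horizontal axis), 1 point for each of 15 arrays. The r is 0.886, 0.210 and 0.596 in that order.

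Genes that act with the contractile and calcium-handling members were read from lists. Of the calcium pumps and small regulators, 4 of 7 had a named probe, 0 of 4 passed in any comparison, and Atp2a2, a calcium pump of heart muscle whose probe gave 67.8% of the sum, differed by -0.16 in males and 0.01 in females. Myosin light chains had 8 of 9 genes tested, with medians of -0.09 in males, 0.13 in females and 0.21 between PBS hearts. Of the 8, 1 passed, Myl1, an essential light chain of fast skeletal muscle, which was higher in PBS males than in PBS females by 1.08 (limma adjusted p = 0.00959, 0.0035 to 0.0732 over its alternatives). That call was lost with no trial term, after normexp background correction, in trial 1 alone, without PBS female 2 and without PBS male 1 of trial 1. Myl1 had an r of 0.76 with the members' mean and Myl9 of 0.67, and the median over the list was 0.02.

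For the secreted members, the Dickkopf family had 2 of 4 genes tested (Dkkl1 and Dkk2) and Dkk1 and Dkk4 not above background, with 0 passing. Receptors and targets of BMP9 and BMP10 had 11 of 11 tested, 0 passing, medians of 0.04 in males, 0.03 in females and -0.06 between PBS hearts, and a median r of -0.10 with the members' mean. Beside Nr2f2, venous and lymphatic endothelial markers had 0 of 8 passing, medians of 0.15 in males and 0.04 in females, and Vwf as 61.0% of their sum. Their summed signal was 28.2, 28.6, 23.3 and 22.1 in PBS males, 30.6, 33.4, 27.3 and 26.9 in Meth males, 30.7, 31.3 and 35.0 in PBS females and 43.1, 31.6, 36.8 and 46.0 in Meth females. In trial 2 both Meth males exceeded both PBS males in this sum, as they did in trial 1 and as they did for Nr2f2. The part of these cells in the Nr2f2 values was not tested.

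Sinus node genes had 0 of 6 passing, medians of 0.17 in males and 0.31 in females, and a median r of 0.31. In females 6 of 6 lay above 0, and in males 5 of 6. The log2 sum of these genes had an r of 0.615 with the members' mean. Their sums overlapped between Meth and PBS females, but lay wholly higher with Meth after normexp correction and after a shift by the median. Working cardiomyocyte markers had 0 of 12 passing, medians of -0.11 and -0.01, and a median r of 0.13. Smooth muscle markers had 0 of 6 passing and a median r of 0.46. Between PBS hearts 6 of 6 lay above 0, that is, higher in males (median 0.27). Their sums overlapped there, but lay wholly higher in PBS males after a shift by the median. Epicardial and mesothelial markers had 0 of 8 passing, with medians of 0.39 in males and 0.01 in females and a median r of 0.16 (0.60 for deviations). Skeletal muscle markers had 1 of 13 passing, Tnni2, lower in Meth males by -0.64 (limma adjusted p = 0.0243, 0.00977 to 0.326 over 29 alternatives). That call was lost with the replicate block (limma adjusted p = 0.0816), no trial term (0.120), trial from the source names (0.0521), each sex alone (0.103), normexp correction (0.104), trial 1 alone (0.145) and both forms of the methods' t-test, and without any of the 4 PBS males or Meth male 1 of trial 1 (0.0665 to 0.0909). Thymus markers (5 tested) and brown fat markers (6 tested) had 0 passing. Thymus medians were 0.40 in males (5 of 5 above 0), -0.35 in females (2 of 5) and -0.62 between PBS hearts (0 of 5). Brown fat medians were 0.03, 0.10 and 0.51 in the same order, with 3, 4 and 4 of 6 above 0. The part of these cell types in the members' values was not tested.

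Of 7 liver markers 5 were tested, and 0 passed with Meth in either sex. Alb and Fgb were lower in PBS males than in PBS females, and Alb in Meth males than in Meth females. Neither gene was well above background in any PBS male, so they entered the test through female hearts and their differences are bounds. The level of Alb was at least 12.3-fold lower in PBS males (limma adjusted p = 0.00140) and that of Fgb, measured in 2 of 3 PBS females, at least 3.07-fold lower (0.0430). In Meth males, where it was again not well above background, Alb was at least 7.72-fold lower than in Meth females (limma adjusted p = 0.00112). These bounds set the dim group at the lowest signal well above background on each array, or at its own signal if higher. The adjusted p values were computed from the signals below background in males and are no support for the bounds. All 3 calls were lost after normexp correction. Fgb was also lost with no filter, after quantile normalization, after a shift by the median, in trial 1 alone and in 11 of 15 fits without 1 array (limma adjusted p = 0.0511 to 0.196).

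The summed signal of the liver markers set Meth and PBS hearts apart in both sexes. It was 2.15, 2.51, 2.32 and 2.26 in PBS males, 3.97, 4.64, 3.36 and 3.63 in Meth males, 3.04, 3.59 and 4.12 in PBS females and 6.87, 4.40, 4.37 and 6.56 in Meth females. All Meth hearts lay above all PBS hearts of their sex, as for Myl4 and Myl7 in females. Ahsg, a plasma glycoprotein gene, was 93.9% of the sum and differed by 0.78 in males (limma adjusted p = 0.0556) and 0.75 in females (0.0985), so the sum followed that 1 gene. Over the 5 tested liver genes the median difference was -0.21 in males, with 2 of 5 above 0, and -0.85 in females, with 1 of 5 above 0 (-0.03 and -0.0025 after normexp correction, with 2 of 5 above 0 in each). Alb, Apoa1 and Fgb, which enter these medians, were well above background on 7, 3 and 4 of the 15 arrays. The r of the log2 sum with the members' mean was 0.202, and the part of these markers in the members' values was not tested.

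Over all 20 lists, sums were wholly higher in Meth than in PBS males for 5 (epicardial and mesothelial, airway secretory, ciliated, general epithelial and liver), and in Meth than in PBS females for 2 (white fat and liver). The liver sum was mostly the Ahsg probe, while the median liver gene lay below 0 in both sexes, as given above. These 7 separations held under the 4 other scalings and backgrounds, some of which added further lists. Epicardial and mesothelial sums were 5.83, 7.14, 6.9998 and 7.04 in PBS males, 9.59, 11.7, 7.57 and 8.70 in Meth males, 8.19, 9.79 and 9.49 in PBS females and 11.6, 7.95, 8.04 and 10.501 in Meth females, with Msln as 46.0%. Between Meth hearts, males lay wholly above females for 4 lists (other atrial-enriched, airway secretory, ciliated and general epithelial). They lay wholly below for 1 (BMP9 and BMP10 receptors and targets). After normexp correction the ciliated and BMP lists overlapped there, and the cardiomyocyte list lay wholly higher in Meth males. Between PBS hearts, males lay wholly above females for 4 lists (other atrial-enriched genes, calcium pumps and regulators, working cardiomyocyte and skeletal muscle markers), all of which overlapped after quantile normalization and the calcium pumps also after normexp correction. Gene by gene, 12 of 14 other atrial-enriched and 10 of 12 cardiomyocyte genes (5 of 12 after quantile normalization) lay above 0 there, but 1 of 4 calcium pump genes (median -0.01, turning to 0.11 with 4 of 4 above 0 after a shift by the median, Atp2a2 being 67.8% of the sum) and 7 of 13 skeletal muscle genes (median 0.06, Myh4 being 74.4% of the sum). They lay wholly below for 6 (BMP9 and BMP10 receptors and targets, venous and lymphatic endothelial, epicardial, alveolar, thymus and liver markers). Of these 6, the BMP and alveolar lists overlapped after normexp correction and after a shift by the median, the thymus list after normexp correction and the endothelial list after the shift. Levels of Sln, Myl4 and Myl7 lay wholly higher in the same PBS males, and the part of these cells in that and in the Meth differences of members was not tested.

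Markers of airway epithelium moved with treatment in males, several of them from below background. Of 10 airway secretory markers 9 were named through their accession and tested (Scgb3a2 was not matched). All 9 passed as higher in Meth males and 2 (Bpifa1 and Reg3g) as higher in Meth females. The difference between the responses of the sexes passed for 5. The paper reports Bpifa1, Scgb1a1, Scgb3a1, Reg3g and Cyp2a5 among its most changed transcripts in this series. Counts over this list are therefore no independent support for a change in airway markers. With the replicate block 7 of the 9 passed in males, Aldh1a1 and Muc5b having limma adjusted p = 0.0514 and 0.0519. The block left 0 of the 2 in females (limma adjusted p = 0.0733 for Bpifa1 and 0.128 for Reg3g) and 0 of the 5 for the difference between responses (adjusted p from 0.0503 for Scgb1a1 to 0.119 for Cyp2f2). Normexp correction left 7, 0 and 5 in the same order, trial 1 alone 7, 1 and 2, and each sex alone 7 and 0 in males and females. By the methods' t-test 0 (paired) and 5 (unpaired) of the 9 passed in males and 0 of the 2 in females. The call of Muc5b in males was also lost without PBS male 1 or 2 of trial 1, PBS male 2 of trial 2, Meth male 2 of trial 1 or Meth male 2 of trial 2 (limma adjusted p = 0.0609 to 0.0813), and that of Cyp2f2 between responses without PBS female 2 (0.0592). In females Bpifa1 was lost without PBS female 1 (0.0562) and Reg3g in 12 of 15 fits without 1 array (0.0506 to 0.148).

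Of the airway genes passing in males, 4 of 9 (Bpifa1, Cyp2a5, Muc5b and Reg3g) were well above background in no PBS male, so their levels were at least 1429.9-fold, 422-fold, 5.85-fold and 171-fold higher in Meth males. Bpifa1 and Reg3g were likewise below it in every PBS female, and at least 20.8-fold and 7.49-fold higher in Meth females. Between the sexes, all 9 airway genes passed as higher in Meth males than in Meth females (limma), and 7 after normexp correction, 7 in trial 1 alone and 8 with no filter, with Muc5b lost in 13 of 15 fits without 1 array. In PBS hearts 1 passed, Scgb1a1, which was lower in males by -5.25 (limma adjusted p = 0.00190, and 0.0713 after normexp correction, with 0.000626 to 0.0713 over 24 alternatives) and was well above background in 2 of 4 PBS males and 3 of 3 PBS females. These are the PBS hearts in which Sln, Myl4 and Myl7 lay wholly higher in males, and a link between the 2 was not tested.

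The summed signal of the 9 airway secretory markers was 6.96, 6.82, 5.75 and 5.30 in PBS males and 69.5, 215, 47.8 and 83.2 in Meth males. It was 6.33, 8.17 and 7.27 in PBS females and 11.003, 6.30, 6.999 and 10.7 in Meth females. The 4 Meth males lay above all other hearts, whereas Meth and PBS females overlapped. In PBS males 3 or 4 of the 9 were well above background on each array, and in Meth males all 9, with Bpifa1 as 28.8% of the sum. The r of the log2 sum with the members' mean was 0.596, and Meth male 2 of trial 1 was the highest heart in both. Of the 3 PBS females, the lowest hearts in the members' mean, 2 had airway sums above those of all PBS males, though the 2 groups overlapped. The part of airway cells in the members' values was not tested.

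Other epithelial lists gave 3 of 6 ciliated (10 in the list), 3 of 6 alveolar (8 in the list) and 3 of 5 general epithelial markers (9 in the list) higher in Meth males, with log2 sums that had an r of 0.602, -0.210 and 0.579 with the members' mean. With the replicate block 3, 2 and 2 of these passed (limma adjusted p = 0.0582 for Sftpa1 and 0.0642 for Cldn7), after normexp correction 0, 0 and 1, in trial 1 alone 2, 1 and 0, and by the methods' t-test 0, 0 and 0. Sftpa1 was also lost without any of the 4 PBS males, Meth male 2 of trial 1 or Meth male 2 of trial 2 (limma adjusted p = 0.0647 to 0.0894), and Krt18 without PBS male 1 or 2 of trial 1, PBS male 1 of trial 2 or Meth male 2 of trial 1 (0.0536 to 0.0646). Dnaic1, Lamp3 and Krt18 had their brightest probes, at 49.3%, 74.0% and 68.5% of the sums, and Epcam, Cldn4, Elf3 and Esrp1 were not well above background on enough arrays to be tested. General epithelial sums were 1.22, 1.46, 1.57 and 1.80 in PBS males, 2.55, 4.02, 2.70 and 2.93 in Meth males, 1.77, 1.99 and 1.85 in PBS females and 2.42, 1.75, 1.52 and 2.00 in Meth females. Ciliated sums were 0.596, 0.719, 0.590 and 0.553 in PBS males, 0.993, 2.05, 0.905 and 1.15 in Meth males, 0.554, 0.553 and 0.648 in PBS females and 0.574, 0.62501, 0.586 and 0.587 in Meth females. Both sums put all 4 Meth males above all PBS males. Alveolar sums did not, at 1.28, 1.32, 1.43 and 1.33 in PBS males, 0.758, 2.18, 1.42 and 1.70 in Meth males, 1.46, 1.98 and 1.77 in PBS females and 1.39, 1.41, 2.01 and 1.79 in Meth females.

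In PBS males 3 of the 3 ciliated, 3 of the 3 alveolar and 1 of the 3 general epithelial genes that passed were well above background on no array, and they were tested because other hearts showed them. The bounds in Meth males were at least 4.20-fold for Foxj1, 14.3-fold for Dynlrb2, 2.37-fold for Ccdc113, 2.77-fold for Sftpa1, 5.15-fold for Sftpd, 12.8-fold for Aqp5 and 2.44-fold for Cdh1, with Ccdc113 and Sftpa1 measured in 3 of 4 Meth males. Sftpc, a surfactant protein gene, was lower in Meth than in PBS females by -2.08 (limma adjusted p = 0.0143), a call lost with the replicate block (0.0667), in trial 1 alone (0.0534), with each sex alone (0.150), after normexp correction (0.607) and by the methods' t-test. In PBS males, where neither was well above background, Sftpc and Sftpd were at least 16.5-fold and 5.02-fold lower than in PBS females (limma). Both calls were made against signals below background and are no support for the bounds. They were lost after normexp correction, and that of Sftpd also with no filter, in trial 1 alone and in 10 of 15 fits without 1 array. Between Meth hearts 4 ciliated, 2 alveolar and 2 general epithelial genes were higher in males and Sftpc was lower. Of these, 2 ciliated and 1 alveolar gene were well above background in no Meth female and Sftpc in no Meth male, and after normexp correction 0 of these calls were left. The difference between responses passed for 2 ciliated and 2 alveolar genes, and for 0 and 0 with the replicate block.

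White fat markers were higher with Meth in both sexes by median (1.08 in males, 1.27 in females, 6 of 6 above 0 in each), and 1 of 6 passed, Cfd in males (1.44, limma adjusted p = 0.0444; 1.37 in females, adjusted p = 0.0829). The call was lost with the replicate block (limma adjusted p = 0.145), with the slide as a block (0.0574), with no filter (0.0794), no trial term (0.156) or trial from the source names (0.0691), with each sex alone (0.128), after normexp correction (0.0883), in trial 1 alone (0.295), by the methods' t-test and in 13 of 15 fits without 1 array (0.0535 to 0.134), and over 29 alternatives the adjusted p ran from 0.0353 to 0.363. Their summed signal was 61.4, 26.9, 19.0 and 24.4 in PBS males, 76.0, 179, 66.2 and 34.9 in Meth males, 32.2, 35.7 and 28.0 in PBS females and 102, 67.7, 67.3 and 95.3 in Meth females. All 4 Meth females lay above all 3 PBS females, as for Myl4 and Myl7, and Cfd was 72.4% of the sum. The r of the log2 sum with the members' mean was 0.381, and the part of fat in the members' values was not tested.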

How the data were processed

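Total RNA from 15 mouse hearts was labelled with Cy3 and hybridized to Agilent 4x44K mouse arrays. The authors deposited scanner output per array, in which spot intensity had been background-subtracted and processed by Feature Extraction (version 9.1 in the submitters' processing notes, 10.5.1.1 in the file headers), and a table of log2 values. Against the intensities, the deposited log2 table equalled log2 processed signal plus a constant for each array, for 100% of values within 0.01, with column medians of 5.19 to 5.38. It was scaled as log2 signal and not centred by gene.

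From 45018 spots per array, control spots and outlier spots were left out, 0 spots were saturated, and spots of one probe were averaged to give 41174 probes. Signal was log2 of the processed signal minus the array's 75th percentile, which was 307 to 589 intensity units. Signal over background was sufficient for 61.4% to 71.4% of probes, depending on the array. A probe entered the tests if 3 or more arrays had it well above background (28367 probes), and limma 3.58.1 (R 4.3.3) was run two-sided on all arrays in 1 fit of 4 groups plus trial, with Benjamini-Hochberg adjustment at 0.05. Trial differences used 6 groups. Code was tested on simulated data. Python 3.11.15, numpy 2.4.6, scipy 1.17.1, pandas 2.3.3 and matplotlib 3.10.9 were used. The number of arrays limits precision.

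Accessions in the files were matched to RefSeq symbols, which named 27188 of 41174 probes, 11 of them differently in the 2 versions of the array design. Each member is given by its brightest probe. Of each list, genes past the threshold and otherwise up to 4 of the brightest were eligible to be named, with the 10 genes most like the members' mean by signal and by deviations. Members and lists were chosen with earlier results of these data known.

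Mice were grouped by title. Source names put Meth females 3 and 4 and PBS female 3 in trial 2, whereas titles put them in trial 1, which was used. Slides 1 and 2 (scan session 1) held trial 1 males and females 1 and 2, slide 3 (session 2) trial 2 males, and slide 4 (session 3) the other 3 females. Replicate numbers entered as pairs only in the replicate block and the paired t-test, which were alternatives. The main fit held no term for pair or slide. Each numbered pair of Meth and PBS hearts deviated together from the group means. The correlations across 23820 probes were 0.334, 0.269, 0.257 and 0.403 in males and 0.301, 0.438 and 0.664 in females. Each pair also shared a slide, so these correlations cannot tell a pair effect from a slide effect.

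The alternatives tried were normexp correction of median pixel signal (offset 50), quantile normalization, a shift by the median, the deposited table, no filter, a filter on all 15 arrays, no trial term, trial from the source names, trial 1 alone, slide or replicate number as a block, each sex alone, the methods' t-test, other probes and each array left out.

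Some choices were made after values were seen. The exact permutation p counts absolute differences in place of the smaller tail doubled, which for 4 against 3 hearts cannot go below 0.0571. Doubling would give 0.0571 in place of 0.0286 for Myl7 in females and for Sln between PBS hearts, and 0.0571 in place of 0.114 for Myl7 between PBS hearts. The motifs, the patterns of opposite trials, the separation counts by trial, the correlations within slide means and scan session 1, the within-slide values and list sums under other scalings and the omission of outlier spots from the background flag (28369 probes with them kept) were also chosen then.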

Additional observations from a re-analysis of the deposited data

Results flagged for a closer look

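For 2 of 7 members, both Meth males lay above both PBS males in trial 1 and below both in trial 2. For Myl4 the trial 2 response minus the trial 1 response was -0.89 (limma adjusted p = 1.00), and for Myl7 it was -0.74 (limma adjusted p = 0.964). The test of the difference did not pass for either gene, and 3.27% of all probes showed the same pattern. The 2 genes varied together from heart to heart, and the pattern was chosen after values were seen. Trial 2 males shared 1 slide and 1 scan session, so trial, slide and session cannot be told apart.

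A single heart far from the rest of its group was looked for with Dixon's ratio in the 21 combinations of member and group with 4 hearts, and 0 were found. The 3 PBS females were not looked at in this way. There Bmp10 was -3.63 in PBS female 2, beside -1.74 and -1.60. Without that heart the female Bmp10 difference went from 0.87 to 0.22, so the 0 does not show that single hearts had little weight.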

How the results depend on the processing

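The number of alternatives was 29 in males and in females (2 of them the methods' t-test), 26 for the difference between responses, 25 between PBS hearts and between Meth hearts and 24 between trials, and in each of them 0 of 7 members passed the threshold. Of 1111 member values recomputed, 1078 kept their direction and their side of the threshold and 33 turned direction, namely 11 of 204 in males, 0 of 204 in females, 15 of 183 for the difference between the sexes' responses, 2 of 176 between PBS hearts, 5 of 176 between Meth hearts and 0 of 168 between trials. The lowest adjusted p was 0.0786 in males, 0.165 in females, 0.404 for the difference between responses, 0.0931 between PBS hearts, 0.1795 between Meth hearts and 0.357 between trials. For deviations from group means the r was -0.21 for Nr2f2 and Dkk3 and -0.16 for Nr2f2 and Stard10, and for the latter pair it was -0.014 without Meth male 2 of trial 1. The cause of each change given here was not tested, except where fewer arrays or probes entered the fit.

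Values that turned were, after a shift by the median, -0.015 for Stard10 in males, -0.078 for Bmp10 and -0.024 for Nr2f2 in the difference between responses. Quantile normalization gave -0.038 for Bmp10 in the latter. In trial 1 alone that difference was 0.039 for Sln, and Dkk3 between PBS hearts was -0.042. Slide as a block gave -0.018 for Myl7 between Meth hearts. The shift by the median moved the median of all probes from -0.015 to -0.12 in the difference between responses, from -0.03 to 0.09 between PBS hearts and from -0.03 to -0.06 in males. In females that median moved from 0.0006 to 0.076 with the shift, and to 0.065 after normexp correction.

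Leaving out 1 array at a time gave male differences of -0.050 to 0.18 for Sln, -0.0076 to 0.31 for Myl4, -0.057 to 0.20 for Myl7 and -0.078 to 0.11 for Stard10. Differences between responses ran from -0.44 to 0.68 for Bmp10, -0.041 to 0.20 for Nr2f2 and -0.083 to 0.33 for Dkk3. Between PBS hearts Dkk3 ran from -0.026 to 0.39, and between Meth hearts Myl4 ran from -0.11 to 0.29 and Myl7 from -0.10 to 0.13. Probes past the threshold numbered 119 to 309 in males, 38 to 205 in females, 42 to 153 between PBS hearts, 197 to 912 between Meth hearts and 0 to 60 between trials. Members whose groups did not overlap numbered 1 to 3, 2 to 4, 3 to 5 and 0 to 2 in males, in females, between PBS hearts and between Meth hearts.

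The count of probes past the threshold was 314 in males. It was 167 with each sex alone, 0 and 18 with the methods' t-test paired and unpaired, 177 with no filter, 52 after normexp correction, 525 with the slide as a block and 43 in trial 1 alone. In females it was 215, and 21 with each sex alone, 0 and 0 with the t-tests, 91 with no filter, 61 with no trial term, 27 after normexp correction, 132 after quantile normalization, 124 after a shift by the median, 411 with the slide as a block and 69 in trial 1 alone. At an unadjusted p under 0.05 limma counted 3639 probes for males and 3131 for females. The difference between responses had 39 probes, and 12 with a filter on all 15 arrays, 14 after normexp correction and 9 in trial 1 alone. Between PBS hearts the count was 131, and 58 with no filter, 21 after normexp correction, 61 in trial 1 alone and 237 with trial from the source names. Between Meth hearts it was 744, and 393, 109, 281 and 1788 in the same order. Between trials it was 0 by limma (1296 at an unadjusted p under 0.05), 1 with a filter on all 15 arrays and 4 with the slide as a block.

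With the replicate block the count was 157 in males, 101 in females and 0 for the difference between responses (2458 at an unadjusted p under 0.05 without the block). The pairing moved no member across the threshold: with the block Myl4 in females was 0.53 (limma adjusted p = 0.341), Myl7 in females 0.41 (adjusted p = 0.378) and Nr2f2 in males 0.27 (adjusted p = 0.203).

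Members whose groups did not overlap numbered 0 in males after a shift by the median and 6 in trial 1 alone, 0 in females after normexp correction and 1 after quantile normalization, 1 between PBS hearts after quantile normalization and 3 between Meth hearts in trial 1 alone. All 8 member probes were well above background on every array, while the form of background correction still moved member values as given. List genes below background in a group have only a bound there.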
